A study of Mus musculus with 24 samples.

Results

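The genes described here were the phase II conjugation enzymes of the mouse, the transferases that attach glutathione, glucuronic acid or sulfate to small molecules. They were taken by symbol from the table of transcript levels, as every row beginning with Gsta, Gstm, Gstt, Gstp, Gstk, Gsto, Gstz, Ugt1, Ugt2, Ugt3 or Sult, which gave 62 of 24532 genes. Of these, 21 were glutathione S-transferases (Gst), 20 were UDP-glucuronosyltransferases (Ugt) and 21 were sulfotransferases (Sult). RNA was sequenced from liver, inguinal white adipose tissue (iWAT), gastrocnemius muscle (GM, labelled Mus) and hypothalamus of C57BL/6 mice at 8 weeks of age, with 3 Ctrl and 3 LKO libraries per tissue and 24 in all. Ctrl mice were *Crif1*flox/flox without Cre, and LKO mice were Alb-Cre;*Crif1*flox/flox, so that both groups carried the floxed *Crif1* alleles and differed in a Cre driven by the albumin promoter, which is active in hepatocytes. *Crif1* encodes a protein of the mitochondrial ribosome that is needed to make the mitochondrially encoded subunits of the respiratory chain. Levels are given as FPKM (fragments mapped to a gene relative to its length and to the depth of the library), differences between groups as log2 fold changes of FPKM + 1 (LKO minus Ctrl) with their standard errors (SE), and libraries are named by group and number (Ctrl 1, LKO 3).

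Phase II enzymes join a polar group to a drug, a toxin or a body's own compound such as a steroid, bilirubin or a bile acid, after which transporters move the conjugate into bile or blood. Glutathione S-transferases use glutathione, the main thiol of the cell, and act on electrophiles, among them products of lipid peroxidation. The glucuronosyltransferases sit in the membrane of the endoplasmic reticulum and use UDP-glucuronate, and the cytosolic sulfotransferases use PAPS, the activated form of sulfate. Liver is a main site of these reactions, and in rodents many of them differ between the sexes or are induced by foreign compounds.

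Depth, estimated from the ratio of deposited coverage to FPKM, ranged from 4.45 to 8.09 Gb per library, and from 4.7 to 5.54 Gb in LKO liver against 5.42 to 8.09 Gb in Ctrl liver. Each tissue was identified by its own markers, with *Alb* at 33127 to 53194 FPKM in liver, and with 2784 to 3036 FPKM of *Adipoq* for iWAT, 18987 to 22620 FPKM of *Ckm* for GM and 545 to 606 FPKM of *Snap25* for hypothalamus. The *Crif1* transcript, listed as *Gadd45gip1*, was at 14.6, 12.5 and 13.6 FPKM in Ctrl liver and 5.4, 2.0 and 2.51 FPKM in LKO liver (log2 fold change -1.84, SE 0.27, adjusted p = 0.00357). LKO 1 was thus the liver library in which the targeted transcript was least reduced. The median log2 fold change over all genes tested in liver was 0.33 on the deposited FPKM, and it was -0.01 after the libraries were rescaled by median-ratio factors, so both scales are given for each conjugation enzyme whose call differed between them.

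Of the 62 genes, 41 were abundant enough for a test in liver (at least 1 FPKM in at least 3 of 6 libraries), and 9 were at 0 in all 6 liver libraries. A gene was called when its fold change was at least 1.5 and its limma p-value, adjusted by the Benjamini-Hochberg method over all 10956 genes tested, was under 0.05. Of the 41, 11 rose and 9 fell in LKO liver, while 23.9% of all genes tested rose and 3.5% fell. The genes that rose were *Gsta1*, *Gsta2*, *Gsta4*, *Gstm1*, *Gstm2*, *Gstm3*, *Gstm5*, *Gsto1*, *Gstt2*, *Ugt1a9* and *Ugt2b37*. The genes that fell were *Gstp1*, *Gstp2*, *Gstz1*, *Ugt2a3*, *Ugt2b1*, *Ugt3a1*, *Sult1b1*, *Sult2a8* and *Sult5a1*. With median-ratio scaling the split became 4 higher and 16 lower, against 9.78% and 7.53% of all genes. The 13 calls shared by both scales were the 9 decreases and the increases of *Gsta1*, *Gsta2*, *Gstm3* and *Ugt1a9*. The higher count was 5 without Ctrl 2, without Ctrl 3 or without LKO 2, where 14.0%, 14.0% and 14.2% of all genes rose, and without LKO 1 the calls were 14 higher and 11 lower, against 34.7% and 4.75% of all genes.

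By superfamily, 9 Gst genes rose and 3 fell of 19 tested, with a median log2 fold change of 0.39, and after scaling 3 were higher and 4 lower with a median of 0.00. Among 16 Ugt genes tested, 2 rose and 3 fell with a median of -0.33, and after scaling 1 was higher and 9 were lower with a median of -0.72. Among 6 Sult genes tested none rose and 3 fell on both scales, with medians of -0.42 and -0.78. These counts stand against 23.9% higher and 3.5% lower of all genes on the deposited FPKM, and 9.78% and 7.53% after scaling. In 12 of the 41 genes all LKO libraries were above all Ctrl libraries and in 15 they were below, so that the groups did not overlap in 27 genes, compared with 61.1% of all genes tested. Among the 11 genes that rose, the LKO library nearest to Ctrl was LKO 1 in 10 and LKO 3 in the remaining gene, *Gstm2*, and among all genes that rose it was LKO 1 in 79.1%. Among the 9 genes that fell it was LKO 1 in 5, LKO 2 in 2 and LKO 3 in 2, and among all genes that fell it was LKO 1 in 66.1%. The plot of effects in liver shows the whole set by family.

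**Figure D1:**
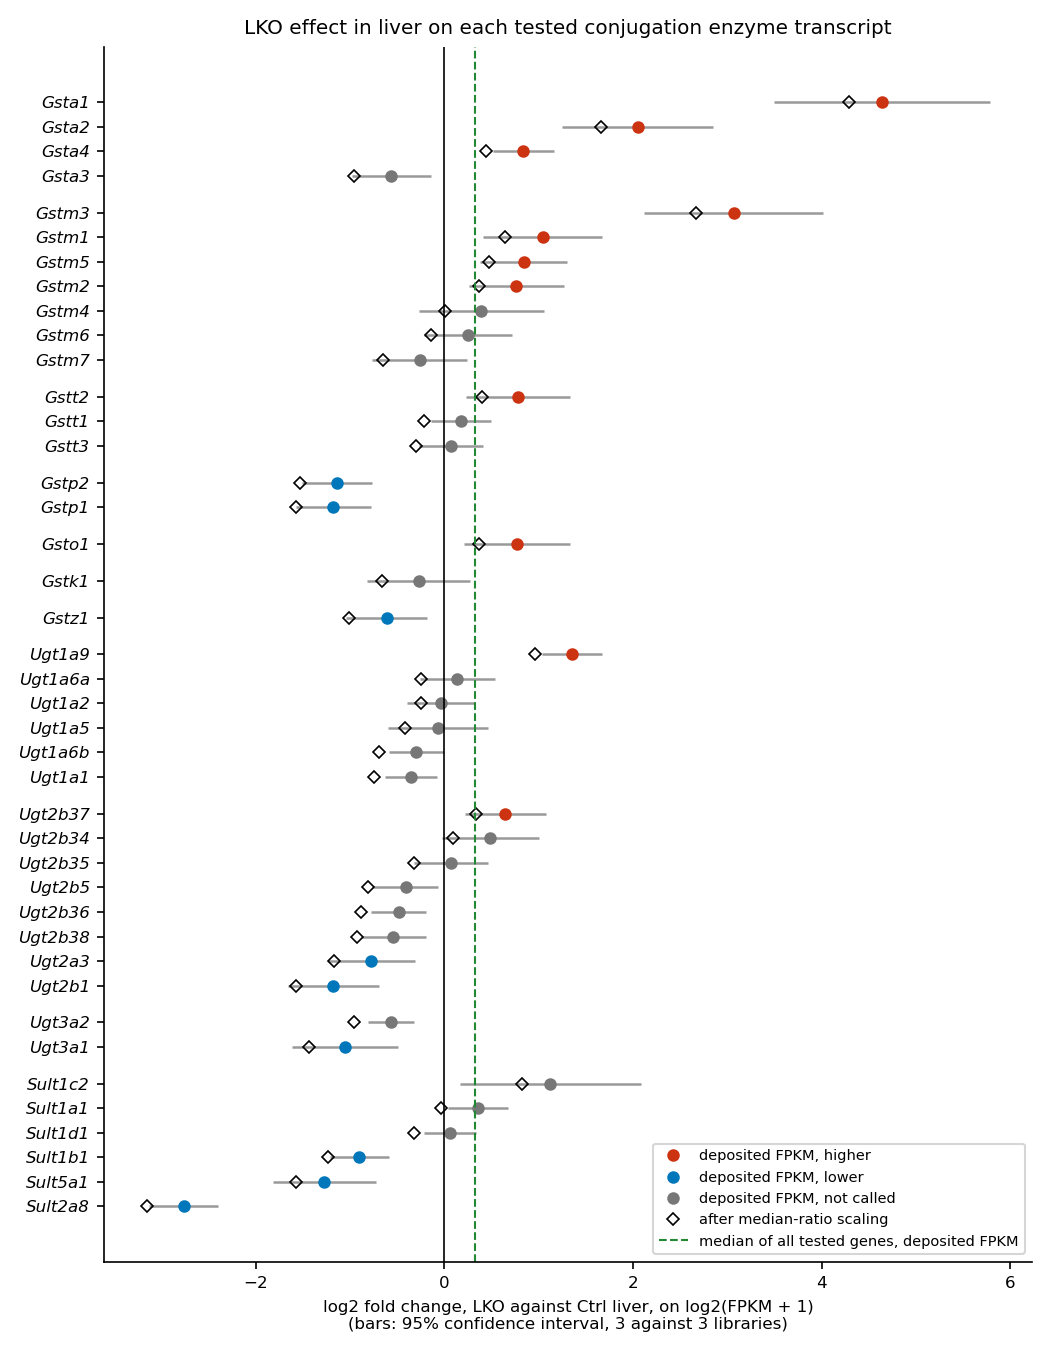
Log2 fold change (x axis, LKO minus Ctrl, FPKM + 1) with its 95% confidence interval for each of the 41 genes tested in liver, in rows by family, with filled points coloured by the call, open diamonds for the value after median-ratio scaling and a dashed line at the median of all genes, 0.33. The Gsta and Gstm increases lie to the right, with Gsta1 at 4.64, and Sult2a8 lies farthest to the left at -2.76.

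Other genes moved in the same livers, and a whole tissue was measured, so that fewer cells of a type and less RNA per cell cannot be told apart. Over all genes tested in liver 23.9% rose and 3.5% fell, and after scaling 9.78% were higher and 7.53% lower. Of 6 hepatocyte markers 1 fell, and their summed level ranged from 55218 to 58046 FPKM in Ctrl and from 41456 to 66964 FPKM in LKO liver. The cholangiocyte markers *Krt19*, *Sox9* and *Spp1* rose, and the sum of their list was 30.7 to 31.8 FPKM in Ctrl and 41.6 to 89.0 FPKM in LKO. Most of that sum was *Spp1* (28.1 to 28.5 FPKM in Ctrl, 34.0 to 77.6 FPKM in LKO). All 5 Kupffer cell markers rose (sum 93.4 to 97.5 and 205 to 326 FPKM), as did all 6 stellate cell and fibroblast markers (67.6 to 75.2 and 181 to 201 FPKM). Of 4 endothelial markers 2 rose (62.8 to 65.0 and 71.0 to 117 FPKM). In the list for infiltrating monocytes and macrophages (sum 51.4 to 57.5 and 140 to 202 FPKM), *Lyz2* and *Cd68* were tested and rose. Most of that sum was *Lyz2* (46.3 to 52.6 and 125 to 168 FPKM). The other genes of that list, *Ccr2*, *Ly6c2*, *Itgam* and *Cx3cr1*, were too low for a test, with all LKO above all Ctrl libraries. The 4 cycling markers were each under 1 FPKM in every Ctrl liver and entered the test through LKO, so no count is given, and their summed level was 0.807 to 1.69 FPKM in Ctrl and 17.4 to 43.9 FPKM in LKO. The cholangiocyte markers *Krt7* and *Epcam* and the female-biased gene *Cyp2b9* also passed the filter through LKO and are not counted. After scaling, the counts were 4 Kupffer, 3 stellate, 1 endothelial and 2 monocyte and macrophage genes. On that scale *Krt19* and *Sox9* were called higher and *Spp1* was not called. The liver libraries of both groups had the sex markers of male mice. *Xist*, a transcript of female cells, was at 0 to 0.00608 FPKM, and the Y-linked *Ddx3y* was at 10.3 to 16.1 FPKM. Genes known for male-biased expression in mouse liver fell, 5 of 5 tested (9270 to 10442 FPKM in Ctrl, 3697 to 5119 FPKM in LKO), and 3 of 3 tested female-biased genes rose (14.7 to 22.3 and 130 to 269 FPKM). The part of these changes in the results for conjugation enzymes was not tested.

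The alpha-class glutathione transferases divided between 3 genes that rose and 1 abundant gene that did not. *Gsta1*, *Gsta2* and *Gsta4* lie together on chromosome 9 (mm10, 78191966 to 78347145), and *Gsta3* lies alone on chromosome 1 (21240585 to 21265575). *Gsta1* (NCBI Gene 14857) encodes an inducible alpha-class enzyme, and it was at 4.72, 2.61 and 2.82 FPKM in Ctrl 1, 2 and 3 and at 44.9, 153 and 173 FPKM in LKO 1, 2 and 3. Every LKO library was far above every Ctrl library, with LKO 1 well below the other LKO libraries. The log2 fold change was 4.64 (SE 0.49, adjusted p = 0.0014), and it was 5.25 without LKO 1 and 4.29 after scaling. *Gsta2*, the neighbour of *Gsta1* with a similar sequence, was at 23.0, 13.7 and 14.9 FPKM in Ctrl and 42.0, 91.8 and 99.0 FPKM in LKO liver (log2 fold change 2.05, SE 0.34, adjusted p = 0.00526). *Gsta4*, whose product is known for conjugating 4-hydroxynonenal, was at 47.4, 36.9 and 34.9 FPKM in Ctrl and 66.6, 76.3 and 70.7 FPKM in LKO liver (log2 fold change 0.84, SE 0.14, adjusted p = 0.00505), without overlap between groups. After scaling, the *Gsta4* difference was 0.45 and was not called. *Gsta3*, the most abundant alpha-class transcript in Ctrl liver, was at 1191, 1126 and 1038 FPKM in Ctrl and 945, 744 and 613 FPKM in LKO liver. The groups did not overlap for *Gsta3*, but its log2 fold change of -0.56 (SE 0.18, adjusted p = 0.0396) was under the fold limit. It was called lower after scaling (-0.96) and without LKO 1 (-0.72).

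The promoters of *Gsta1*, *Gsta2* and *Gsta3* are shown because the first pair rose and the other gene did not. They are RefSeq sequences of the build GRCm38.p6 from 250 bases before to 50 bases after the start of transcription, and capitals mark matches to the motifs described further on. The intervals are chr9:78230419-78230718 on the plus strand for *Gsta1*, chr9:78347096-78347395 on the minus strand for *Gsta2* and chr1:21240335-21240634 on the plus strand for *Gsta3*.
Gsta1: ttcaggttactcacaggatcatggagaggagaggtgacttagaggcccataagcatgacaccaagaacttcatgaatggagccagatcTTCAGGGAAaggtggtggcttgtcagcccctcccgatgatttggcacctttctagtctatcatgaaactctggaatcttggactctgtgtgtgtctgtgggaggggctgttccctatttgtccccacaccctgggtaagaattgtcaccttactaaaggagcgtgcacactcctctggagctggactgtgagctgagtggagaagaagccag
Gsta2: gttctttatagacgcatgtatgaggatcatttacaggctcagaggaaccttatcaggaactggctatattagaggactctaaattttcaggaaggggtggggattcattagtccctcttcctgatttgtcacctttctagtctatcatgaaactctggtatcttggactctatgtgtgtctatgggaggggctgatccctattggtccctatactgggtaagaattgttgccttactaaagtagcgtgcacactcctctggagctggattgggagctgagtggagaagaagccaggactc
Gsta3: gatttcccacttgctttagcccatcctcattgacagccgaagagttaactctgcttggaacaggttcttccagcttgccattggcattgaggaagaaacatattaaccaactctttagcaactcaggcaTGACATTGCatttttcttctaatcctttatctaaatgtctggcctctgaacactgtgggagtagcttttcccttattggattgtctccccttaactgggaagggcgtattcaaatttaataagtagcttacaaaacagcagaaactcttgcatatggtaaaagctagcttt
Aligned over their 300 bases, the promoters of *Gsta1* and *Gsta2* had 232 identical bases, 74.6% of the alignment, and those of *Gsta1* and *Gsta3* had 170, 52.0% of the alignment.

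Reads of *Gsta1* may be shared with its close copies. Among all stretches of 100 bases in its transcripts (GENCODE M21), 80.6% also occurred in another gene, 64.7% in the gene model *Gm3776*. For *Gsta2* the share was 28.4%, with 18.2% in *Gsta1*, and for *Gsta3* and *Gsta4* it was 0. *Gm3776* itself was at 2.90, 1.37 and 1.64 FPKM in Ctrl and 37.2, 122 and 141 FPKM in LKO liver, and another model of the cluster, *Gm10639*, was at 0, 0 and 1.17 FPKM in Ctrl and 9.64, 25.1 and 30.6 FPKM in LKO liver. How the fragments were divided among these copies is therefore uncertain. The sum of *Gsta1*, *Gsta2*, *Gm3776* and *Gm10639* was 30.7, 17.7 and 20.5 FPKM in Ctrl and 134, 392 and 443 FPKM in LKO liver, a ratio of means of 14.1. Both models were named after their values were seen.

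The mu-class genes form a row of 7 on chromosome 3 (107895854 to 108044859). Of these 4 rose and none fell, against 23.9% and 3.5% of all genes tested. *Gstm1* (NCBI Gene 14862) gave the most abundant mu-class transcript, at 1344, 1106 and 1008 FPKM in Ctrl and 1571, 2696 and 3110 FPKM in LKO liver (log2 fold change 1.04, SE 0.27, adjusted p = 0.0215). LKO 1 lay close to Ctrl 1, and the difference was 1.34 without it. *Gstm3* (NCBI Gene 14864) changed most in the cluster, from 94.1, 49.6 and 66.1 FPKM in Ctrl to 305, 703 and 882 FPKM in LKO liver (log2 fold change 3.07, SE 0.41, adjusted p = 0.00251), and it was 2.67 after scaling. All LKO libraries were above all Ctrl libraries, and the lowest was again LKO 1. *Gstm5*, at the end of the cluster, was at 9.07, 8.07 and 8.80 FPKM in Ctrl and 11.8, 17.1 and 21.2 FPKM in LKO liver (log2 fold change 0.84, SE 0.20, adjusted p = 0.0161). *Gstm2* was at 55.3, 32.1 and 44.6 FPKM in Ctrl and 86.2, 75.3 and 61.2 FPKM in LKO liver (log2 fold change 0.76, SE 0.21, adjusted p = 0.0279). In *Gstm2*, unlike the other mu-class genes that rose, LKO 1 was the highest LKO library. *Gstm4*, *Gstm6* and *Gstm7* did not pass the test on either scale, with differences of 0.39, 0.25 and -0.26 that were 0.002, -0.14 and -0.65 after scaling, and *Gstm4* was called higher without LKO 1 (0.71). After scaling, *Gstm3* remained called and the differences of *Gstm1* (0.65), *Gstm2* (0.37) and *Gstm5* (0.47) were not. These 3 calls were also lost without Ctrl 2, Ctrl 3 or LKO 2 (adjusted p 0.0576 to 0.0861). Of the 100-base stretches in its transcripts, *Gstm3* shared 13.8% and *Gstm1* 5.86% with other genes.

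The pi class was the most abundant of the set in Ctrl liver, and both of its genes fell. *Gstp1* and *Gstp2* lie side by side on chromosome 19 (4035411 to 4042221). *Gstp1* (NCBI Gene 14870), known as an abundant transferase of male mouse liver, was at 2192, 1961 and 2269.7 FPKM in Ctrl and 767, 1027 and 1072 FPKM in LKO liver (log2 fold change -1.18, SE 0.17, adjusted p = 0.00342). *Gstp2* was at 330, 293 and 340 FPKM in Ctrl and 116, 163 and 162 FPKM in LKO liver (log2 fold change -1.14, SE 0.16, adjusted p = 0.00305). For both genes every LKO library was below every Ctrl library, and LKO 1 was the library farthest from Ctrl, whereas it was the nearest in 10 of the 11 genes that rose. *Gstp2* made up 13.0% of the Gstp sum in Ctrl and 13.3% in LKO liver. The transcripts of the pair overlap in sequence, with 25.1% of the 100-base stretches of *Gstp1* and 46.9% of those of *Gstp2* shared with other genes, so the division between them is uncertain. Quantile normalisation ended the call for *Gstp1*, at a log2 difference of -0.62, and not for *Gstp2*.

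The Gstp promoters are shown as the pair that fell together, and the *Gstm5* promoter as the mu-class promoter in this set with a motif match among the genes that rose. They lie at chr19:4037863-4038162 on the minus strand for *Gstp1*, chr19:4042172-4042471 on the minus strand for *Gstp2* and chr3:107895604-107895903 on the plus strand for *Gstm5* (GRCm38.p6, RefSeq).
Gstp1: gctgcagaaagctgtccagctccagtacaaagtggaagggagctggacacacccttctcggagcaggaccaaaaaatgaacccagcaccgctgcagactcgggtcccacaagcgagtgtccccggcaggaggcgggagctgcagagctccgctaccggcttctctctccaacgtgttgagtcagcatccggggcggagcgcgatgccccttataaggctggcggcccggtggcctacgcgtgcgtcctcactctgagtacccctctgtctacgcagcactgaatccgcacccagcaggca
Gstp2: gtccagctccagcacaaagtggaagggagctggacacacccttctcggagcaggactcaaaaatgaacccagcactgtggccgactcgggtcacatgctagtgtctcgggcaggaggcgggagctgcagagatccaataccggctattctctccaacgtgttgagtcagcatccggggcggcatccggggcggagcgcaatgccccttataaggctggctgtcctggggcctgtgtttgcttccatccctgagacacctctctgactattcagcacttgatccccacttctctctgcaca
Gstm5: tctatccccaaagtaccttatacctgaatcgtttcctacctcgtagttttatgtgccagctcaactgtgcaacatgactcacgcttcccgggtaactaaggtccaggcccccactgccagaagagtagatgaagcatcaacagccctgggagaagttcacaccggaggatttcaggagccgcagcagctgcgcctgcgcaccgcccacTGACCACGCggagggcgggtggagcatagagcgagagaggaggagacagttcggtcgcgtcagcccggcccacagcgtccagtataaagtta
The promoters of *Gstp1* and *Gstp2* had 242 identical bases of 300, 76.6% of the alignment.

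**Figure D2:**
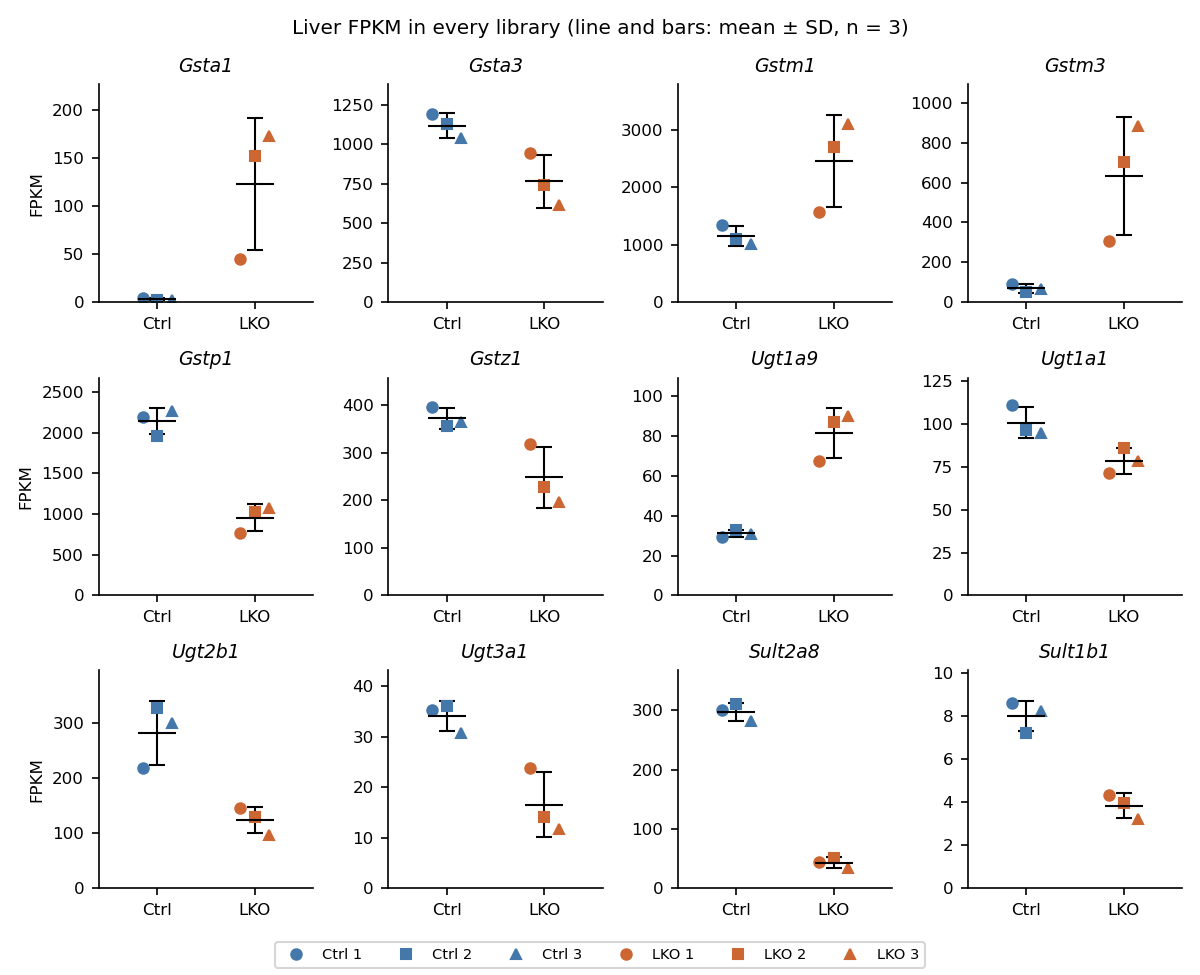
FPKM (linear y axis from 0) in each of the 3 Ctrl and 3 LKO liver libraries for 12 genes, 1 marker per library with a line and bars at the mean ± SD of each group. Gsta1 and Gstm3 show all LKO points above all Ctrl points with LKO 1 lowest among them, and Gstp1, Ugt2b1 and Sult2a8 show all LKO points below.

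Among the remaining glutathione transferases, *Gsto1*, an omega-class enzyme that can reduce dehydroascorbate, was at 60.8, 59.3 and 55.9 FPKM in Ctrl and 68.2, 106 and 140 FPKM in LKO liver (log2 fold change 0.77, SE 0.24, adjusted p = 0.0381). The theta-class gene *Gstt2* was at 23.6, 13.9 and 20.5 FPKM in Ctrl and 25.0, 36.2 and 40.1 FPKM in LKO liver (log2 fold change 0.78, SE 0.24, adjusted p = 0.0346). In both genes LKO 1 was the library nearest to Ctrl, and neither was called after scaling (0.37 and 0.39). *Gsto1* was not called when any single library other than LKO 1 was left out (adjusted p 0.0719 to 0.112), nor was *Gstt2* without Ctrl 2, Ctrl 3, LKO 2 or LKO 3 (0.0825 to 0.109). *Gstt1*, the theta-class gene with the highest level, was at 177, 144 and 141 FPKM in Ctrl and 173, 192 and 156 FPKM in LKO liver, a difference of 0.18 that turned to -0.22 after scaling and was not called on either scale. *Gstz1*, which encodes the maleylacetoacetate isomerase of tyrosine breakdown, fell from 397, 356 and 364 FPKM in Ctrl to 319, 228 and 197 FPKM in LKO liver (log2 fold change -0.61, SE 0.18, adjusted p = 0.0329). The *Gstz1* call was lost when any single library other than LKO 1 was left out (adjusted p 0.0733 to 0.109), and also with TPM, quantile normalisation, no filter or ordinary variances. *Gstk1*, the kappa-class enzyme of mitochondria and peroxisomes, was at 83.7, 76.6 and 79.9 FPKM in Ctrl and 98.2, 58.4 and 50.2 FPKM in LKO liver, so that the groups overlapped (log2 fold change -0.27, adjusted p = 0.348). LKO 1 was above all Ctrl libraries, and LKO 2 and LKO 3 were below them. The *Gstk1* difference ranged from -0.67 to -0.08 over the alternatives. *Gsto2* and *Gstt4* were below the limit for a test.

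The 8 Ugt1 genes are first exons and promoters of a single locus on chromosome 1 (88055411 to 88220002) and share the exons at its 3′ end, which code for the part that binds UDP-glucuronate. *Ugt1a9*, whose product acts on phenols, was at 29.5, 33.0 and 30.8 FPKM in Ctrl and 67.3, 87.2 and 90.2 FPKM in LKO liver (log2 fold change 1.35, SE 0.13, adjusted p = 0.00116, and 0.96 after scaling). It was the member of the locus that rose among the 6 tested. *Ugt1a1*, the enzyme that conjugates bilirubin and the most abundant of the locus in Ctrl liver, was at 111, 96.2 and 94.8 FPKM in Ctrl and 71.1, 86.1 and 78.2 FPKM in LKO liver. All LKO libraries were below all Ctrl libraries, but the log2 difference of -0.36 (SE 0.12, adjusted p = 0.0446) was under the fold limit, and it was called lower after scaling (-0.75). *Ugt1a6a*, *Ugt1a6b*, *Ugt1a2* and *Ugt1a5* had differences of 0.14, -0.30, -0.04 and -0.06 and were not called. After scaling, *Ugt1a6b* was called lower (-0.69, adjusted p = 0.0151) and *Ugt1a6a* was at -0.25, not called. *Ugt1a7c*, below the limit for a test, was at 0.298, 0.352 and 0.435 FPKM in Ctrl and 0.824, 1.06 and 0.838 FPKM in LKO liver. The other untested gene, *Ugt1a10*, was at 0.882, 0.674 and 0.752 FPKM in Ctrl and 0.426, 0.499 and 0.471 FPKM in LKO liver. Between 50.4% and 70.9% of the 100-base stretches of each Ugt1a gene occurred in another member of the set. For *Ugt1a1* the share was 57.2% with other members and 77.4% with any gene. The levels of single members therefore depend on how fragments were assigned.

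The Ugt2 genes, which conjugate steroids and bile acids among other substrates, span chromosome 5 from 86889770 to 87490871. *Ugt2b1* (NCBI Gene 71773) was at 217, 327 and 299.9 FPKM in Ctrl and 145, 129 and 97.4 FPKM in LKO liver, with all LKO libraries below all Ctrl libraries (log2 fold change -1.18, SE 0.20, adjusted p = 0.00595). *Ugt2a3* fell from 96.2, 118 and 106 FPKM in Ctrl to 79.0, 64.5 and 46.2 FPKM in LKO liver (log2 fold change -0.77, SE 0.20, adjusted p = 0.0205). The *Ugt2a3* call was lost without Ctrl 2, Ctrl 3 or LKO 2 (adjusted p 0.0601 to 0.0777), without LKO 3 (log2 fold change -0.57, under the fold limit) and with ordinary variances. *Ugt2b37*, a transcript of low level, rose from 2.34, 2.39 and 2.89 FPKM in Ctrl to 3.25, 5.78 and 4.85 FPKM in LKO liver (log2 fold change 0.65, SE 0.18, adjusted p = 0.029). It was not called after scaling (0.34), and its adjusted p was between 0.0675 and 0.0995 when any single library but LKO 1 was left out. *Ugt2b5*, the most abundant Ugt2 transcript in Ctrl liver, was at 465, 517 and 437 FPKM in Ctrl and 312, 422 and 342 FPKM in LKO liver. Its groups did not overlap, and its log2 difference was -0.41 (SE 0.15, adjusted p = 0.0573), called lower after scaling (-0.80). *Ugt2b36* and *Ugt2b38* behaved alike on the 2 scales, with -0.48 and -0.54 on the deposited FPKM, not called, and -0.88 and -0.93 after scaling, both called. *Ugt2b38* was also called lower without Ctrl 1 (-0.62), without LKO 2 (-0.65) and with quantile normalisation (-0.80). *Ugt2b34* and *Ugt2b35* were not called on either scale, and *Ugt2b34* was called higher without LKO 1 (0.71) and with deposited TPM (0.61).

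The Ugt3 pair on chromosome 15 (9279829 to 9370870) uses sugars other than glucuronate. *Ugt3a1* fell from 35.3, 36.1 and 30.6 FPKM in Ctrl to 23.8, 14.1 and 11.7 FPKM in LKO liver (log2 fold change -1.05, SE 0.24, adjusted p = 0.0143), a call that was lost without Ctrl 1, Ctrl 2 or LKO 2 (adjusted p 0.0522 to 0.0579) and with ordinary variances. *Ugt3a2*, at 147, 141 and 131 FPKM in Ctrl and 99.9, 94.8 and 87.7 FPKM in LKO liver, had no overlap between groups and a log2 difference of -0.57 (SE 0.10, adjusted p = 0.00716), just under the fold limit. It was called lower after scaling (-0.96), without Ctrl 3 or without LKO 1 (-0.61 in both).

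Of the 21 sulfotransferase genes, 8 were at 0 in all liver libraries and 6 were tested. *Sult2a8* (NCBI Gene 76971), known for sulfating bile acids in mouse liver, fell from 299.6, 311 and 281 FPKM in Ctrl to 44.7, 51.4 and 34.2 FPKM in LKO liver (log2 fold change -2.76, SE 0.16, adjusted p = 0.000174). This was the largest decrease in log2(FPKM + 1) among the 41 genes tested, and it was -3.16 after scaling. *Sult2a8* is the member tested of 8 Sult2a genes in a cluster of 869 kb on chromosome 7 (13623967 to 14492926), and its transcript shared no 100-base stretch with another gene. Its neighbour *Sult2a7* was at 1.49, 0.371 and 0.404 FPKM in Ctrl and 0.0689, 0.171 and 0 FPKM in LKO liver, below the limit for a test.

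*Sult1b1*, which sulfates thyroid hormones and phenols, fell from 8.59, 7.24 and 8.23 FPKM in Ctrl to 4.35, 3.97 and 3.23 FPKM in LKO liver (log2 fold change -0.90, SE 0.13, adjusted p = 0.00364). *Sult5a1* (NCBI Gene 57429) fell from 4.24, 6.08 and 8.69 FPKM in Ctrl to 1.55, 1.89 and 2.47 FPKM in LKO liver (log2 fold change -1.27, SE 0.23, adjusted p = 0.00731). The Ctrl libraries spread widely for *Sult5a1*, although none overlapped with LKO, and with ordinary variances the call was lost (adjusted p = 0.052). *Sult1a1*, the phenol sulfotransferase, was at 115, 137 and 134 FPKM in Ctrl and 190.2, 161 and 145 FPKM in LKO liver, and its log2 difference of 0.36 (SE 0.14, adjusted p = 0.065) was -0.04 after scaling. *Sult1d1*, which can act on catecholamines, was near 30.5 FPKM in Ctrl and 32.0 FPKM in LKO liver as group means, with overlap. *Sult1c2* was at 2.16, 1.44 and 1.43 FPKM in Ctrl and 1.93, 5.49 and 9.14 FPKM in LKO liver, where LKO 1 lay within the Ctrl range, and it did not pass the test (log2 fold change 1.12, SE 0.41, adjusted p = 0.059). *Sult1c2* was called higher without LKO 1 (1.61), with deposited TPM (1.37) and in a fit of all 24 libraries. The estrogen sulfotransferase *Sult1e1* was at 0.0779, 0 and 0 FPKM in Ctrl and 0.242, 0.234 and 0.606 FPKM in LKO liver, too low for a test.

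Because FPKM is a level per length, the members of a family can be added to see how its makeup differed. The summed Gstm level was 1720.2, 1361 and 1301 FPKM in Ctrl and 2152, 3699 and 4334 FPKM in LKO liver, a ratio of means of 2.32 (1.72 after scaling). The summed Gstp level was 2522, 2254 and 2609.7 FPKM in Ctrl and 883, 1190.1 and 1235 FPKM in LKO liver, a ratio of 0.448 (0.337 after scaling). These sums moved in opposite directions, and all Gst genes together had a ratio of 1.07 with overlap between groups (0.80 after scaling). Within the Gsta sum, whose ratio was 0.882 with overlap, *Gsta3* made up 94.9% in Ctrl and 73.4% in LKO liver, and *Gsta1* 0.284% and 12.2%. The share of *Gsta1* in single LKO libraries ranged from 4.09% to 18.1%. *Gstm3* made up 4.73% of the Gstm sum in Ctrl and 17.9% in LKO liver, with *Gstm1* at 79.0% and 72.5%. The summed Ugt2 level was 1369, 1557 and 1379.8 FPKM in Ctrl and 1011, 1182 and 1084 FPKM in LKO liver (ratio 0.761), and the Ugt1 sum had a ratio of 1.05 with overlap (0.798 after scaling). The Sult sum was 459.6, 494 and 465 FPKM in Ctrl and 272, 260.2 and 226 FPKM in LKO liver (ratio 0.534). In that sum *Sult2a8* made up 62.9% in Ctrl and 17.1% in LKO liver, and *Sult1a1* 27.1% and 65.3%. All 62 genes together had 1.5% of the summed FPKM in Ctrl and 1.56% in LKO liver. With 3 libraries a group an exact two-sided permutation test of a sum cannot give a p-value under 0.1, and none is given.

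**Figure D3:**
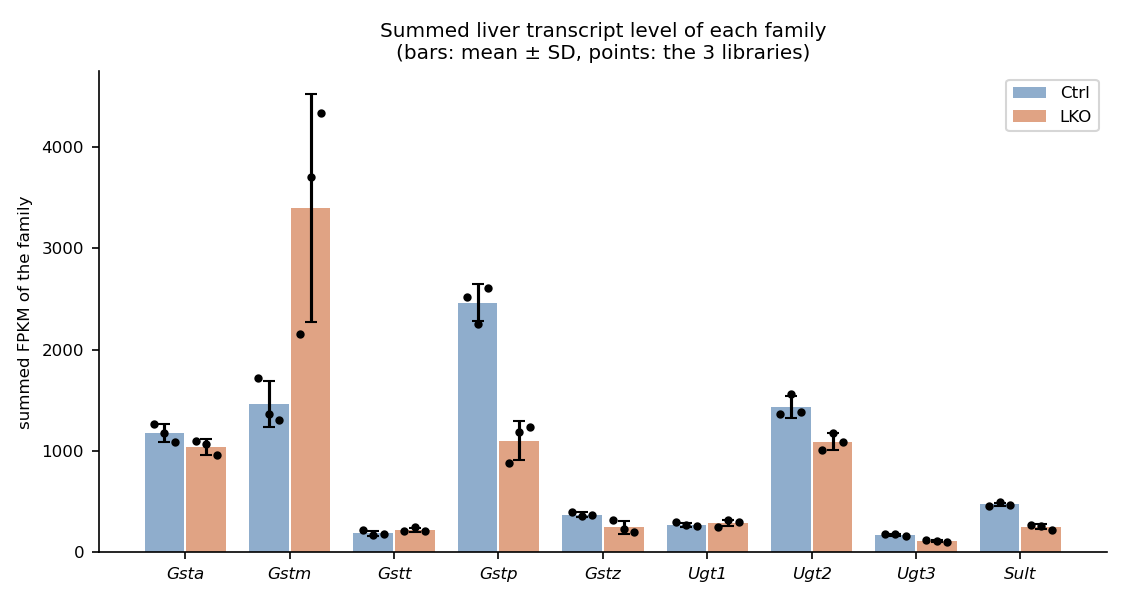
Summed FPKM of 9 families (linear y axis from 0) in Ctrl and LKO liver, with bars at the mean ± SD of 3 libraries and 1 point per library. The Gstm points of LKO lie above those of Ctrl, the Gstp, Gstz, Ugt2, Ugt3 and Sult points lie below, and the Gsta, Gstt and Ugt1 points overlap.

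Promoters were available for 54 of the 62 genes, as 65 sequences of 300 bases, and 3 motifs were searched in them on both strands. The core of the antioxidant response element, to which NRF2 with a small MAF protein binds, was searched as TGACNNNGC, the C/EBP-ATF response element of the integrated stress response as TGATGNAA, and the STAT5 element as TTCNNNGAA, whose reverse complement is the same word. The antioxidant response core was present in 3 of 54 member genes (5.56%), namely *Gsta3*, *Gstm5* and *Gstm7*, and in 14.0% of 27025 genes overall. It began 121 bases before the start in *Gsta3* and 42 bases before the start in *Gstm5*, the matches in capitals above. The C/EBP-ATF word was present in 1 member, *Sult1e1*, and in 4.51% of all genes. The STAT5 word was present in 4 members (7.41%), namely *Gsta1*, where it began 162 bases before the start, *Gstm6*, *Sult3a1* and *Ugt1a6a*, and in 9.55% of all genes. Counted over promoters, the shares of all 32851 sequences with a match were 12.4%, 3.97% and 8.30%. Of 9 genes that rose and had a promoter in the table, 1 held the antioxidant response core, and of 9 genes that fell none did. A match is a run of letters and does not show binding, and sequence outside these 300 bases was not searched.

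The supply of the cosubstrates was followed in 3 lists of genes, beside 23.9% higher and 3.5% lower of all genes tested in liver. After scaling those shares were 9.78% and 7.53%. Of 10 tested genes of glutathione supply 2 rose and none fell, with a median log2 fold change of 0.27 (-0.08 after scaling). *Gss*, which catalyses the last step of glutathione synthesis, rose from 33.5, 36.3 and 33.4 FPKM in Ctrl to 70.1, 87.9 and 95.1 FPKM in LKO liver (log2 fold change 1.26, SE 0.13, adjusted p = 0.00142). *Ggct*, an enzyme of glutathione turnover, had a log2 fold change of 0.66 (SE 0.17, adjusted p = 0.0219), a call lost without Ctrl 2, Ctrl 3, LKO 1 or LKO 2 (0.53 to 0.73). *Gclc* and *Gclm*, the subunits of the enzyme for the first step, had differences of 0.53 and 0.24 and were not called. Of 7 genes for UDP-glucuronate supply and transport 2 rose and none fell (median 0.53, 0.13 after scaling). *Ugdh*, the dehydrogenase that makes UDP-glucuronate, rose from 56.7, 60.3 and 57.5 FPKM in Ctrl to 119.5, 173 and 202 FPKM in LKO liver (log2 fold change 1.45, SE 0.19), without overlap. *Slc35d1*, a transporter of UDP-glucuronate in the endoplasmic reticulum, had a log2 fold change of 0.60 (SE 0.18), and its call was lost when any single library other than LKO 1 was left out (0.48 to 0.62). Of 8 tested genes for PAPS supply, sulfate transport and sulfatases none was called by limma on the deposited FPKM, with a median of 0.21, and 1 was called lower after scaling (median -0.16).

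Enzymes and transporters next to the conjugation step were read from further lists. Of 8 genes for microsomal and other GST-like proteins 3 rose and none fell (median 0.53, 0.20 after scaling). These were *Mgst3*, a microsomal transferase with peroxidase activity, at a log2 fold change of 0.98 (SE 0.19, adjusted p = 0.0516 with ordinary variances), *Clic1*, a protein with a transferase fold, at 0.91 (SE 0.14), and *Eef1g*. *Mgst1*, the abundant microsomal transferase, was at 3041, 2876 and 2752 FPKM in Ctrl and 2354, 2121 and 1572 FPKM in LKO liver, a difference of -0.54 that was not called (adjusted p = 0.0505) and was called lower after scaling (-0.94, adjusted p = 0.0382). In the list of other conjugation enzymes, which also held the epoxide hydrolase genes *Ephx1* and *Ephx2*, 1 of 13 rose and 3 fell (median -0.17, -0.57 after scaling). The gene that rose was *Ephx1*, the microsomal epoxide hydrolase (0.90, SE 0.24, not called when any single library other than LKO 1 was left out), and those that fell were the methyltransferase gene *Inmt* (-1.34, SE 0.24, adjusted p = 0.0502 with ordinary variances), *Baat*, which conjugates bile acids with taurine or glycine, and *Ephx2*. Among 9 efflux transporters *Abcb4* rose and none fell (median 0.49, 0.09 after scaling). *Abcc4*, a basolateral exporter of conjugates and bile acids, was at 0.334, 0.261 and 0.316 FPKM in Ctrl and 3.09, 9.52 and 22.2 FPKM in LKO liver (log2 fold change 2.94, SE 0.55, adjusted p = 0.00747). The value was 3.58 without LKO 1 and 2.33 without LKO 3, and with ordinary variances the call was lost (adjusted p = 0.0594). *Abcb1a*, a drug efflux pump, had a log2 fold change of 1.5 (SE 0.21), and *Abcc5* was also higher. *Abcc4*, *Abcb1a* and *Abcc5* were under 1 FPKM in every Ctrl liver and entered the test through their LKO levels, so no count is given for this list. Of 19 factors known to regulate conjugation genes 5 rose and 1 fell (median 0.33, -0.05 after scaling). The small MAF genes *Mafk* and *Maff* rose by log2 values of 1.76 (SE 0.27) and 1.70 (SE 0.22), and *Nfe2l2*, which encodes NRF2, *Ahr* and *Stat5a* also rose. The gene that fell was *Nr1i3*, which encodes the receptor CAR. After scaling, the counts over the 7 lists together changed from 17 higher and 4 lower (23.9% and 3.5% of all genes) to 9 higher and 8 lower (9.78% and 7.53%) of 74. Both higher counts hold *Abcc4*, *Abcb1a* and *Abcc5*, whose part was set by the filter. The 8 genes no longer called were *Ggct*, *Clic1*, *Eef1g*, *Slc35d1*, *Ephx1*, *Nfe2l2*, *Ahr* and *Stat5a*, and the 4 called lower on the scaled values alone were *Mgst1*, *Suox*, *Abcc6* and *Foxa1*. *Eef1g*, *Baat*, *Ephx2*, *Abcb4*, *Abcc5*, *Nfe2l2*, *Ahr*, *Stat5a*, *Nr1i3*, *Suox*, *Abcc6* and *Foxa1* were named after their values were seen.

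The Ctrl libraries show where each gene is normally expressed. By mean level 38 of the 62 genes were highest in liver, in 35 of them without overlap with the other tissues, 9 were highest in iWAT and 6 in hypothalamus, and the other 9 were at 0 in all Ctrl libraries. Over all 24532 genes, 9.38% were highest in liver (6.68% without overlap), 22.3% in iWAT and 42.7% in hypothalamus. *Gstp1* had a mean of 2141 FPKM in liver and of 127 to 172 FPKM in the other tissues. *Ugt2b5* was at 473 FPKM in liver and at 0 in iWAT. Several genes had their peak elsewhere. *Sult4a1*, a sulfotransferase-like gene of the brain, was at 156 to 190.1 FPKM in hypothalamus. *Gstm5* was at 143 FPKM in hypothalamus and 8.65 FPKM in liver, and *Gsta4* at 51.8 and 39.7 FPKM. *Sult1e1*, the estrogen sulfotransferase, was at 17.4 FPKM in iWAT, and *Ugt1a7c* at 5.74 FPKM in iWAT.

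**Figure D4:**
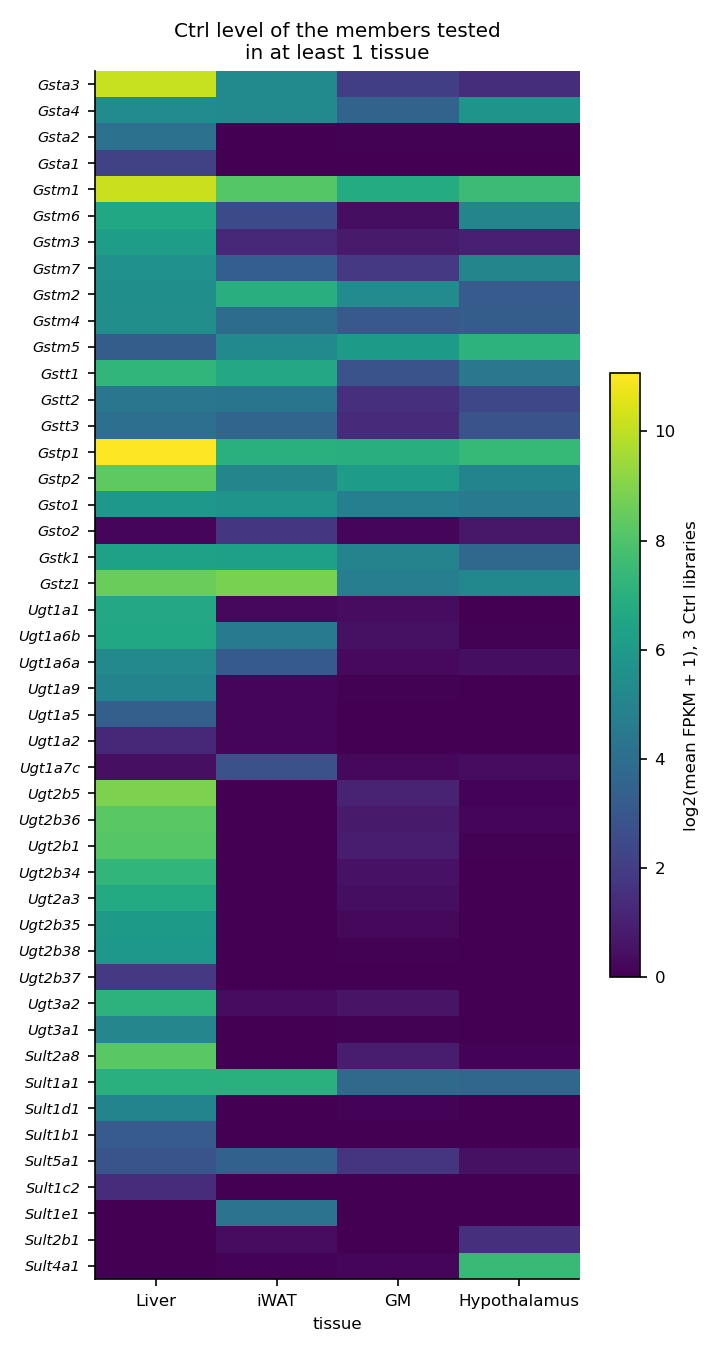
Mean level over 3 Ctrl libraries, as log2(mean FPKM + 1) on a colour scale from dark at 0 to bright, of the 46 genes tested in at least 1 tissue (rows, by family) in the 4 tissues (columns). Most rows are brightest in liver, while Sult4a1 and Gstm5 are brightest in hypothalamus and Sult1e1 in iWAT.

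Outside the liver no member was called in the fit of each tissue on the deposited FPKM. In iWAT 24 members were tested and limma called 0 at the adjusted threshold, where 0.0% of all genes were called. With the fold limit and an unadjusted p under 0.05 there was 1, *Sult1e1*, against 3.25% of all genes. *Sult1e1* was at 9.36, 14.8 and 28.0 FPKM in Ctrl and 3.63, 6.78 and 7.38 FPKM in LKO iWAT (log2 fold change -1.32, SE 0.40, adjusted p = 0.21). In a fit of all 24 libraries together the adjusted p was 0.00244, where 2.58% of all genes were called in iWAT, and *Gstt2* was called in iWAT without LKO 1 (0.61, adjusted p = 0.0467), where 0.895% of all genes were. All LKO libraries were below all Ctrl libraries, with 7.38 and 9.36 FPKM in the nearest libraries of the groups. With no fold limit 5 members had an unadjusted p under 0.05, against 15.0% of all genes, and these were *Gstt1* (-0.50), *Sult1a1* (0.55), *Sult1e1*, *Sult5a1* (-0.46) and *Ugt1a6a* (0.43), named after their values were seen.

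In GM 18 members were tested, and 0 were called at the adjusted threshold (0.0% of all genes) or with the fold limit and an unadjusted p under 0.05 (0.901% of all genes). With no fold limit 2 had an unadjusted p under 0.05, *Gstp1* (-0.21) and *Sult1a1* (0.32), against 6.83% of all genes. In hypothalamus 20 members were tested, and limma called 0 at the adjusted threshold (0.0217% of all genes), 0 with the fold limit and an unadjusted p under 0.05 (0.333% of all genes), and 0 with no fold limit (3.72% of all genes). The largest absolute log2 difference among members was 0.50 in GM and 0.25 in hypothalamus. Some members that are typical of liver were listed in GM at low levels, such as *Ugt2b5* at 2.12, 0.0548 and 1.19 FPKM in Ctrl and 0.496, 0.201 and 0.108 FPKM in LKO. *Alb* was at 167, 13.7 and 125 FPKM in the same Ctrl libraries and 65.6, 8.32 and 22.8 FPKM in LKO, so both were highest in Ctrl 1 and Ctrl 3. The part of this liver transcript in the GM values was not tested.

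**Figure D5:**
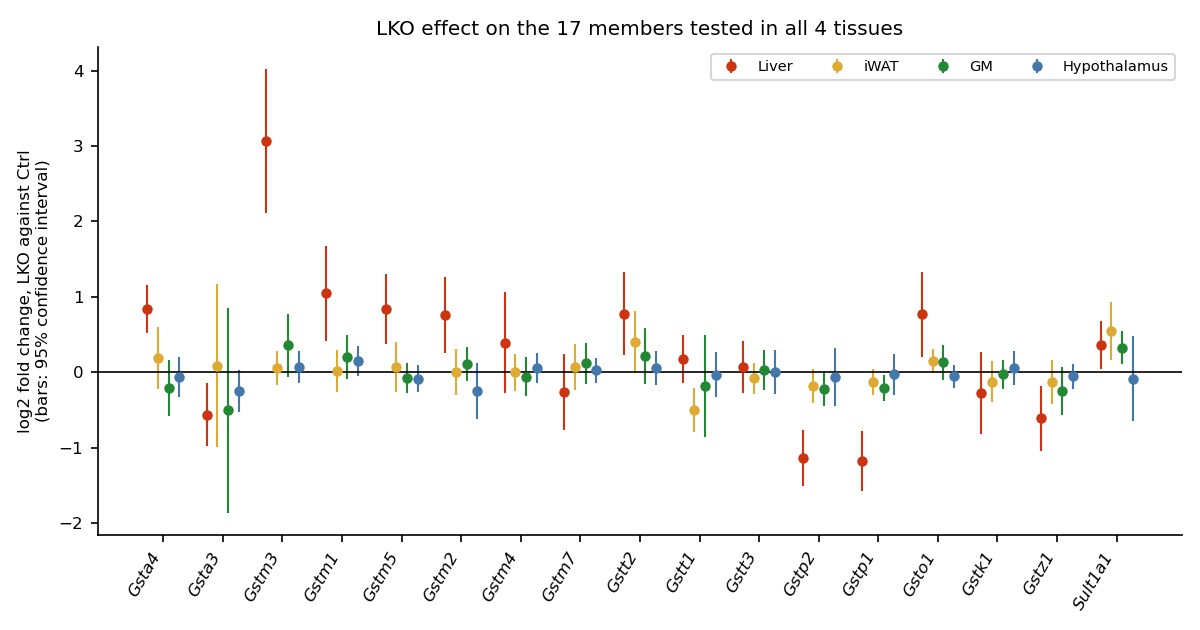
Log2 fold change (y axis, LKO minus Ctrl, FPKM + 1) with its 95% confidence interval of the 17 genes tested in all 4 tissues, 1 coloured point per gene and tissue. In liver Gstm3 stands at 3.07 and Gstp1 at -1.18, while their values in iWAT, GM and hypothalamus lie between -0.21 and 0.36.

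Whether the LKO effect differed among the tissues was tested by the interaction term of genotype with tissue, using the 24 libraries together. Of 21 members that were expressed in liver and in at least 1 other tissue, 9 had an adjusted p under 0.05, a share of 42.9% against 43.4% of all genes tested. The smallest p-values were those of *Gstm3* (adjusted p = 1.59e-05), *Gstp1* (9.73e-05) and *Gstp2* (0.00156). *Gstm3* had log2 fold changes of 3.07 in liver and of 0.06, 0.36 and 0.07 in iWAT, GM and hypothalamus. Its Ctrl means in those 3 tissues were 1.37, 0.754 and 0.987 FPKM, near the filter limit, where the pseudocount of 1 understates changes. With a filter at a mean of 5 FPKM *Gstm3* was not among the members called. For *Gstp1* the values were -1.18, -0.13, -0.21 and -0.03, and for *Gstp2* they were -1.14, -0.19, -0.22 and -0.06. The other genes were *Gstm5*, *Sult5a1*, *Gsta4*, *Gstm1*, *Gstm2* and *Gsto1*. Genes such as *Gsta1*, *Ugt2b1* and *Sult2a8* did not enter this test, since they passed the filter in liver alone. With median-ratio scaling 5 members were called, against 27.8% of all genes, and without the LKO 1 liver library 14 were, against 58.8%.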

How the data were processed

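Unstranded RNA libraries (TruSeq RNA kit) of 3 Ctrl and 3 LKO samples per tissue (liver, iWAT, GM and hypothalamus) were sequenced in pairs of 100-nt reads by the authors, and the groups were taken from the labels. The authors deposited, for each library and for mm10 genes with NCBI Gene identifiers, FPKM values, TPM values and coverage (signal). The submitters' processing notes name FastQC 0.11.5, Trimmomatic 0.32, HISAT2 2.0.5, Bowtie2 2.2.6, STAR 2.5.2b and StringTie 1.3.3b with no role or order, and counts of reads were not used here. FPKM is relative within a library, so a few abundant transcripts shift all others, and how fragments from near-identical genes were divided is not known.

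From the deposited FPKM, log2(FPKM + 1) was compared between LKO and Ctrl within each tissue with limma 3.58.1 in R 4.3.3 (moderated variances with a trend), keeping genes that reached 1 FPKM in 3 or more of the 6 libraries, with Benjamini-Hochberg adjustment over all genes tested. A gene was called at a fold change of at least 1.5 and an adjusted p under 0.05. The pseudocount of 1 understates the change of low transcripts. Interaction of genotype and tissue was a limma F test over 24 libraries, for genes that passed the filter in liver and another tissue. The scripts were tested on simulated data. Tables, sequences and plots were made with Python 3.11.15, pandas 2.3.3, scipy 1.17.1 and matplotlib 3.10.9. Deposited TPM served as an alternative, as did other pseudocounts, filters, scalings, variances and fold limits, a replicate block and leaving out each library. Depth in aligned gigabases was estimated per library as the median ratio of deposited coverage to FPKM over genes above 1 in both, and this depth limits the precision of low transcripts.

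Members and gene lists were chosen with earlier results of these data known. Values are given in full for up to 6 called genes per family with the largest change in liver, the most abundant gene of each family in Ctrl liver, up to 3 genes per other tissue by the unadjusted criterion, up to 2 called genes per list and the 3 smallest interaction p-values. The sources do not tie libraries of different tissues to single mice, so libraries were treated as independent, and p-values measure the spread between these samples. Promoters were taken from a RefSeq table (GRCm38.p6), and shared stretches of 100 bases were counted in GENCODE M21 transcripts, in which all 62 genes were found.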

Additional observations from a re-analysis of the deposited data

Results flagged for a closer look

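The LKO effect differed between tissues in 9 of the 21 conjugation genes tested, by the interaction of genotype and tissue in a limma F test over 24 libraries, and the share was close to that of all genes (43.4%). The adjusted p was 1.59e-05 for *Gstm3*, which rose in liver and had differences of 0.06 to 0.36 elsewhere, at Ctrl means of 0.754 to 1.37 FPKM. It was 9.73e-05 for *Gstp1* and 0.00156 for *Gstp2*, which fell in liver by log2 values of 1.18 and 1.14 and had differences between -0.22 and -0.03 elsewhere.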

How the results depend on the processing

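The count of 11 higher genes in liver (23.9% of all genes) was 4 with median-ratio scaling (9.78%), 6 with quantile normalisation (8.50%), 5 with ordinary variances (11.7%) and 5 at a fold limit of 2 (8.21%), and it ranged from 5 to 14 when single libraries were left out (14.0% to 34.7% of all genes), with 5 without Ctrl 2, Ctrl 3 or LKO 2 and 14 without LKO 1. The count of 9 lower genes (3.5%) was 16 with median-ratio scaling (7.53%), 5 with ordinary variances (1.99%) and 14 with no fold limit (5.49%), and it ranged from 6 to 11 when single libraries were left out (2.46% to 4.75%). In iWAT the count of 0 became 1 in a fit of all 24 libraries (*Sult1e1*, where 2.58% of all genes were called), and ranged from 0 to 1 with single libraries left out (*Gstt2* without LKO 1, where 0.895% of all genes were called). In GM and hypothalamus it was 0 in every setting run. The interaction count of 9 (43.4% of all genes) was 22 of 46 tested with no filter (30.6%), 5 with median-ratio scaling (27.8%) and 4 with quantile normalisation (24.8%), and ranged from 7 to 14 with single libraries left out (29.5% to 58.8%). With median-ratio scaling 7 differences in liver turned from positive to negative, none of them called, namely *Gstt1* (to -0.22), *Gstm6*, *Gstt3*, *Sult1a1*, *Sult1d1*, *Ugt1a6a* and *Ugt2b35*. The cause of these shifts was not tested. Of the 20 genes called in liver, 8 were called in every setting other than the fold limit of 2, namely *Gsta1*, *Gsta2*, *Gstm3*, *Ugt1a9*, *Gstp2*, *Ugt2b1*, *Sult1b1* and *Sult2a8*, and no called gene reversed. Among the 8, *Sult1b1* was not called at the fold limit of 2. The alternatives for *Sult1e1* in iWAT (-1.67 to -0.93) and for the summed levels were chosen after seeing the data.

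With the replicate number as a block the liver counts were 11 and 9, the interaction count was 9, and the counts in iWAT, GM and hypothalamus were 0. Deviations of same-numbered liver samples correlated at 0.154, 0.028 and 0.036, and not every sample correlated best with its own number, so the numbers were not taken as a pairing.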
